A study of Mus musculus with 2 samples.

Results

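Chaperones and folding enzymes were examined in mouse feeder fibroblasts kept with or without FGF2. The genes were taken from families by symbol: the HSP70, HSP110, HSP90 and small heat shock protein families, the HSP60 and HSP10 chaperonins of mitochondria, J-domain proteins (Dnaja, Dnajb, Dnajc), the TRiC subunits (Cct), protein disulphide isomerases and thioredoxin-domain proteins (Pdia, Txndc), the FKBP and cyclophilin peptidyl-prolyl isomerases, and the BAG proteins. A gene was matched to a probe through the number in the probe's ID, read as an NCBI gene ID. RefSeq listed 152 such genes, and the array held 63 probes of 53 of them under this match. Of the 53, 34 were detected, out of 8384 detected genes in all (each unnamed probe counts as a gene). No Hsph or Pdia gene had a matched probe, nor did Hspa1a, Hspa1b, Hsp90b1 or Ppib. Detected means a detection score of at least 0.99 on at least 1 array, and the brightest detected probe stands for its gene. All 34 were detected on both arrays.

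The cells were CD1 mouse embryonic fibroblasts, primary cells of a kind that serves as feeder layer for human embryonic stem cells. Both cultures had been arrested with mitomycin C, replated on gelatine at 55000 cells per square centimetre, and moved a day later to serum replacement medium for human embryonic stem cells, so arrest and medium are shared by both groups. The control culture received no FGF2, and the other culture received 40 ng/ml of it, both for 24 h. FGF2 is a growth factor whose receptors are tyrosine kinases. Total RNA of each culture was hybridised to 1 Illumina bead array with 1 colour. With 1 array per group there was no replicate check, no test was run, and every difference describes this pair of arrays.

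Chaperones bind unfolded or partly folded proteins and release them for folding, mostly in cycles driven by ATP. The cytosol uses HSP70 with J-domain partners, the ring-shaped TRiC chaperonin and the HSP90 machine, and mitochondria use their own HSP70 and the HSP60 and HSP10 chaperonin. The lumen of the endoplasmic reticulum (ER) uses the HSP70 family member BiP, disulphide isomerases and prolyl isomerases, which in fibroblasts fold collagens and other matrix proteins on their way out. Cytosolic chaperone genes are classic targets of heat shock factor 1, and ER chaperone genes are classic targets of the unfolded protein response.

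Detection was reached by 8210 of 24044 probes without FGF2 (34.1%) and by 8129 with it (33.8%). Probes below detection had median deposited signals of 141 and 133, which shows how much of a dim probe's signal was background. Signals were quantile normalized, and differences are given as log2 of the FGF2 signal divided by the control signal. The error from bead to bead on this ratio ran from 0.054 to 0.10 among the 34 genes, with a median of 0.072. A wider error came from 514 probes of 243 genes with several detected probes, whose ratios scattered within a gene with an SD of 0.18. Of 12 fibroblast markers, 6 had a matched probe and all 6 were detected, with summed signals of 18683 without and 13535 with FGF2. Without Col1a1 the sum of the other 5 was 9564 and 10838: Col1a2 and Col3a1 were lower, Fbln1 stood at -0.11, and Dcn (0.42) and S100a4 (0.75) were above 0. Markers of other cells were detected for 2 of 7 macrophage and blood genes (Lyz2 and Hba-a1, summed 422 and 338), 1 of 2 endothelial genes (Emcn, 268 and 302) and 2 of 3 epithelial genes (Krt18 and Cldn4, 408 and 608). The log2 ratios were 0.91 (Krt18), 0.13 (Cldn4), 0.17 (Emcn), -0.12 (Lyz2) and -0.04 (Hba-a1). Hba-a1 was detected only without FGF2 (signals 198 and 133). Its ratio was taken with the lowest detected signal of 193 in place of the FGF2 signal. The other markers with a matched probe, Ptprc, Cd68, Csf1r, Itgam, Hbb-b1, Pecam1 and Krt8, were not detected. Whether any of these marker differences has a part in the chaperone values was not tested. In bulk RNA, fewer cells of a type and less RNA per cell cannot be told apart.

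Of the 34 genes, 7 were at least 1.5-fold higher on the FGF2 array and 1 was at least 1.5-fold lower, against a background over all detected genes of 4.34% in the upward and 5.58% in the downward direction. The higher genes were the mitochondrial chaperones Hspa9, Hspe1 and Hspd1, the cytosolic genes Ppid, Hsp90aa1 and Fkbp4 of the HSP90 machine, and Hspa5, which codes for BiP. The lower gene was Fkbp14, a prolyl isomerase of the ER. Ratios between 1.65-fold and 1.96-fold covered all 7 higher genes. In all, 25 of the 34 ratios lay above 0, and their median was 0.15, against 52.3% above 0 and a median of 0.01 over all detected genes. Large ratios are more frequent among bright genes: among the 4194 genes at or above the median brightness, the same upward and downward shares were 7.18% and 8.97%. The 7 higher genes and Fkbp14 were all among the 26 members in that brighter set. The 8 dimmer members had ratios from -0.34 to 0.41, where background is a larger part of the signal.

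**Figure D1:**
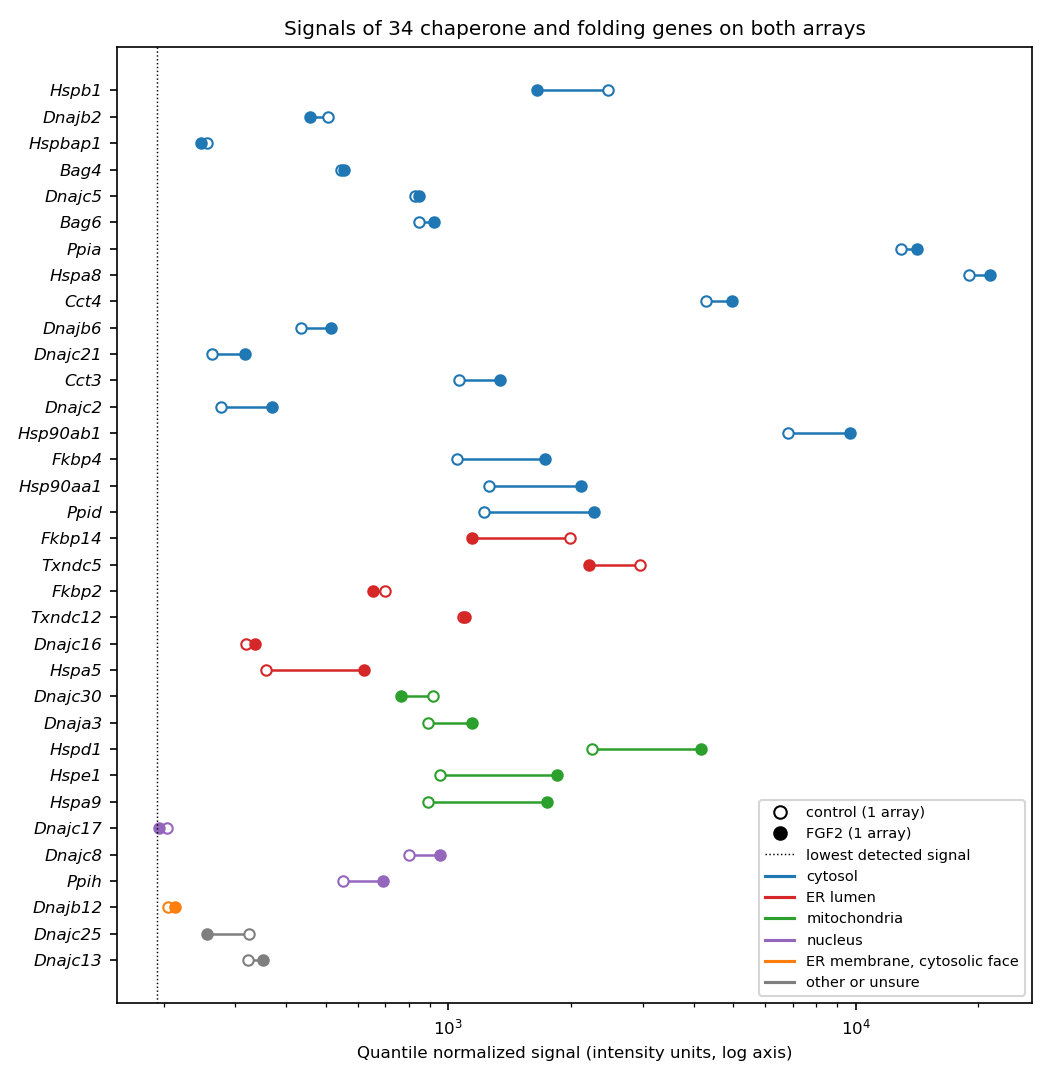
Quantile normalized signal of each of the 34 genes on the control array (open points) and the FGF2 array (filled points), on a log axis, coloured by the compartment of the protein. The dotted line is the lowest detected signal, and each point is 1 array. Hspa9, Hspe1 and Hspd1 have their filled points well to the right, and Fkbp14 and Hspb1 have theirs to the left.

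The mitochondrial HSP70 and chaperonin genes were all at least 1.5-fold higher with FGF2. Hspa9 codes for mortalin, the HSP70 of the mitochondrial matrix that pulls imported proteins inward and folds them. Its signal was 892 without and 1747 with FGF2, a log2 ratio of 0.97 with a bead error of 0.062. Only 119 of the 8384 detected genes had a higher ratio. Hspd1 codes for HSP60, which forms the folding chamber of the matrix, and Hspe1 for HSP10, the lid of that chamber. The Hspd1 signal was 2251 without and 4173 with FGF2 (1.85-fold, bead error 0.067). The Hspe1 signal was 954 without and 1845 with FGF2 (1.93-fold, bead error 0.10). The chaperonin partners thus had log2 ratios of 0.89 and 0.95, which differ by less than either bead error. Both genes have processed pseudogenes, so cross-hybridisation makes their values uncertain. The probe matched to the pseudogene Hspe1-ps2 was not detected, with scores of 0.31 and 0.46.

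The other mitochondrial members were J-domain genes and did not share these ratios. Dnaja3, a partner of mitochondrial HSP70 also known as Tid1, had signals of 890.2 and 1140.4 and a log2 ratio of 0.36. Dnajc30, a J-domain protein of the inner mitochondrial membrane, had signals of 917 and 766 and a ratio of -0.26, and its second probe was not detected. Of the 5 mitochondrial members, 3 were thus at least 1.5-fold higher, and the median of the 5 was 0.89. The share at least 1.5-fold higher was 4.34% over all detected genes and 7.18% among the brighter genes. Like the cytosol and ER groups compared below, these 5 members are too few to set against such shares. The exchange factor gene Grpel2, the only one of 7 further mitochondrial import and folding genes with a matched probe, was not detected.

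The chaperonin pair is shown with its promoter because Hspd1 and Hspe1 lie head to head. In RefSeq (GRCm38.p6) the start site of Hspe1 on the plus strand and 1 annotated start of Hspd1 on the minus strand are 216 bases apart on chromosome 1, and the 300 base windows around these starts share 285 bases. A second annotated start of Hspd1, at 55088243, lies past the Hspe1 start at 55088148, with a window that shares 4 bases. The layout with 216 bases between the starts thus holds for only 1 of the annotated Hspd1 starts. The window of Hspe1, from 250 bases before its start to 50 after, is chr1:55087898-55088197 on the plus strand. Capitals mark matches to a heat shock element, searched as GAANNTTC or TTCNNGAA, each of which is its own reverse complement.

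Hspe1: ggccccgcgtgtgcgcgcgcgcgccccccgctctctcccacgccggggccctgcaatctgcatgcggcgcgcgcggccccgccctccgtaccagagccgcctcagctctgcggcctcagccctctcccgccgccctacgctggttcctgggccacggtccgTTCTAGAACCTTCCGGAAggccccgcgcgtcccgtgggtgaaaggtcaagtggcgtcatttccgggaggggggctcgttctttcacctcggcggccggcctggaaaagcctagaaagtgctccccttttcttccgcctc

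The window held 3 matches that overlap into 1 run of 18 bases, from 89 to 72 bases before the Hspe1 start. Seen from the Hspd1 start that lies 216 bases away, the same run lies from 144 to 127 bases before that start. The window of the second Hspd1 start held no match. At least 1 match was present in 15.1% of the 32851 promoter windows of the table, and at least 2 in 1.96% of them. Such a match is a description of the letters and no measure of binding.

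Members of the HSP90 machine of the cytosol formed the next group, picked out after their values were seen. Hsp90aa1, the stress-responsive HSP90 isoform, had signals of 1261 and 2114 (1.68-fold higher with FGF2, bead error 0.076). The 2 other probes matched to Hsp90aa1 were not detected on either array, so this value rests on 1 of 3 probes. Hsp90ab1, the constitutive isoform, had signals of 6839 and 9676 on its brightest probe. Its 3 probes had log2 ratios of 0.50, 0.40 and 0.16, a wider range than the bead error, and none reached 1.5-fold.

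The HSP90-bound prolyl isomerases were close to Hsp90aa1. Ppid codes for cyclophilin 40, which binds the end of HSP90 through a tetratricopeptide domain, and Fkbp4 codes for FKBP52, which binds HSP90 in the same way and serves steroid receptors. Ppid had signals of 1223 without and 2274 with FGF2, a ratio of 0.89 that only 142 detected genes exceeded. Fkbp4 had signals of 1050.1 and 1729, a ratio of 0.72 with a bead error of 0.065. By contrast Ppia, the abundant cyclophilin A that works without HSP90, had signals of 12938 and 14114 and a ratio of 0.13. The Ppia ratio depended on the scaling. It was 0.23 with the signals as deposited, 0.31 with median scaling and 0.30 in the authors' deposited table. Ppia has many processed pseudogenes and its value is uncertain for that reason.

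The detected partners of HSP90 and HSP70 outside these families were on the higher side. Of 11 listed genes, 5 had a matched probe and 4 were detected. Their median log2 ratio was 0.38, and 1 was at least 1.5-fold higher. Over all detected genes, 52.3% of ratios lay above 0 and 4.34% were at least 1.5-fold higher (7.18% among the brighter genes). These 4 genes are too few to set against such shares. Ptges3 codes for p23, the co-chaperone that holds HSP90 closed on its client, and had signals of 646 and 1038 (1.61-fold higher). Chordc1 (0.39), St13 (0.36) and the heat shock factor gene Hsf1 itself (0.27) stayed within 1.5-fold, and Hsf2 was not detected.

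The promoter of Fkbp4 is shown as that of an HSP90 partner. It is chr6:128438607-128438906 on the minus strand (GRCm38.p6), printed 5′ to 3′ along the gene, with the heat shock element match in capitals.

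Fkbp4: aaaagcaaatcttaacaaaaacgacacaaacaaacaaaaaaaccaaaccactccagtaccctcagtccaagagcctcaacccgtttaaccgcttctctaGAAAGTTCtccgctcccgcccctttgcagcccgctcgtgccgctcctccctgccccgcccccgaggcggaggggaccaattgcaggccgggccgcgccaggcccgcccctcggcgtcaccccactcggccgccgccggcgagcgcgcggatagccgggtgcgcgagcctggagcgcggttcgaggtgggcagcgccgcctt

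It held 1 match, from 151 to 144 bases before the start.

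**Figure D2:**
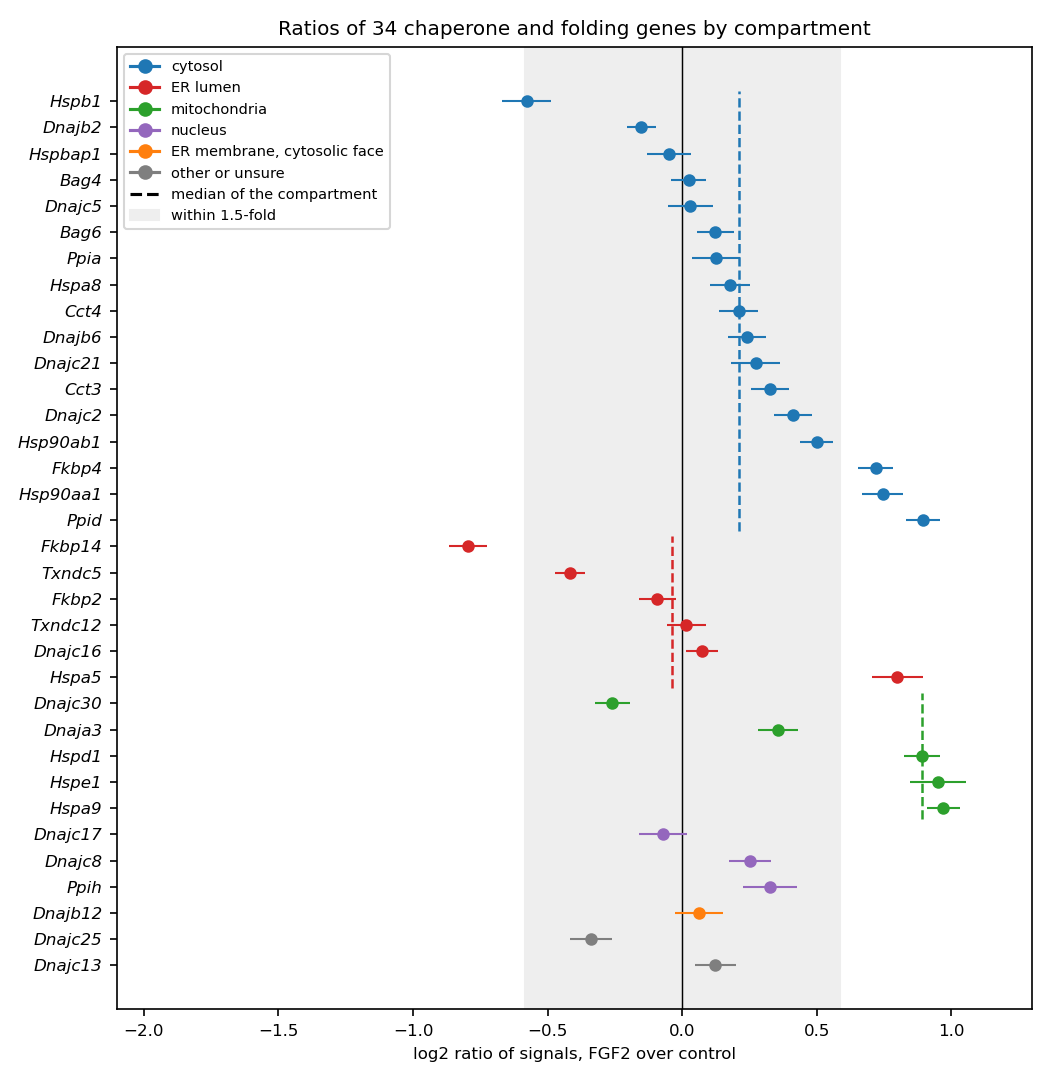
Log2 ratio of FGF2 over control for each of the 34 genes, ordered within compartments. Bars are the bead error of the ratio, dashed lines the medians of the cytosolic (0.21), ER (-0.04) and mitochondrial (0.89) members, and the grey band is within 1.5-fold. The ER members spread from -0.79 to 0.80.

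The detected genes of the general HSP70 system of the cytosol stayed within 1.5-fold as normalized here. Hspa8 was the only cytosolic HSP70 gene detected. Hspa8, the constitutive HSC70, was near the top of the array's signal range with 18939 without and 21418 with FGF2. Its brightest probe had a log2 ratio of 0.18 and its second probe 0.24. The ratio of the brightest probe depended on the scaling and was 0.31 with the signals as deposited and 0.39 both with median scaling and in the authors' deposited table. Hspa8 also has many pseudogene copies, which leaves its value uncertain. Among the cytosolic J-domain genes, which stimulate the ATPase of HSP70, all 5 were within 1.5-fold as normalized here, with ratios from -0.15 (Dnajb2) to 0.41 (Dnajc2). Dnajc2, a ribosome-bound J-domain protein, had signals of 277 and 368, but its second probe was below detection. Its log2 ratio was 0.71 in the authors' deposited table and 0.67 with the median of undetected probes subtracted, both past 1.5-fold. Dnajb6, which suppresses aggregation, stood at 0.24. The BAG proteins, which regulate HSP70, had ratios of 0.12 (Bag6) and 0.02 (Bag4), and Hspbap1, which codes for a protein that binds HSP27, stood at -0.05.

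The TRiC chaperonin folds actin and tubulin. Its detected subunits were Cct3, with signals of 1065 and 1336 (ratio 0.33), and Cct4, with 4284 and 4957 (ratio 0.21). Both were higher, both by less than 1.5-fold. Prefoldin delivers nascent chains to TRiC, and all 4 detected prefoldin genes had ratios above 0, with a median of 0.40. Pfdn2 had signals of 1086 and 1778 (1.64-fold higher) and Pfdn4 of 358 and 540 (1.51-fold higher). Pfdn4 was past 1.5-fold by less than its bead error of 0.051. Vbp1 stood at 0.20 and Pfdn5 at 0.07. Over all detected genes, 52.3% of ratios lay above 0 and 4.34% were at least 1.5-fold higher (7.18% among the brighter genes). A set of 4 genes is too small to weigh against these shares.

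Hspb1 had the lowest ratio of the 17 cytosolic genes. It codes for HSP27, a small heat shock protein that holds unfolded proteins and binds the actin cytoskeleton. Its signal was 2459 without and 1647 with FGF2, a log2 ratio of -0.58 with a bead error of 0.091, just inside 1.5-fold lower (1.49-fold). No other small heat shock protein had a matched probe. Its promoter is printed because it too holds heat shock element matches, while the ratio of the gene was opposite to those of Hspe1, Hspd1 and Fkbp4. The window is chr5:135887669-135887968 on the plus strand (GRCm38.p6).

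Hspb1: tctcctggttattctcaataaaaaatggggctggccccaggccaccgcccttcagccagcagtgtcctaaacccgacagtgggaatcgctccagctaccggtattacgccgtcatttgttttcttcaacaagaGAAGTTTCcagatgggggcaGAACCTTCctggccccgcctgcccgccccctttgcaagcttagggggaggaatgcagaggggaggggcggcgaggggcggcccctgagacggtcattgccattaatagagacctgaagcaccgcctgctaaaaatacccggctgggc

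The 2 matches lay from 117 to 110 and from 97 to 90 bases before the start.

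The ER members went both ways. Hspa5, BiP, is the HSP70 of the ER lumen and the best known target of the unfolded protein response. It had signals of 356 without and 620 with FGF2 (1.74-fold higher, bead error 0.093). In the authors' deposited table, from which background had been subtracted, the same probe read 226 and 503, a 2.23-fold difference. Fkbp14, a prolyl isomerase that acts on procollagen and whose human gene is mutated in a form of Ehlers-Danlos syndrome, had signals of 1988 and 1146 (1.74-fold lower, bead error 0.071). Hspa5 and Fkbp14 thus lay on opposite sides, each on 1 probe. Both ratios were larger than the bead error, which covers the spread within an array and not that between cultures.

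The other ER members were closer to 0 or lower. Txndc5, a disulphide isomerase also called ERp46, had signals of 2949 and 2210 and a log2 ratio of -0.42. Fkbp2, a small ER-resident prolyl isomerase, had signals of 697 and 654 and a ratio of -0.09, beside a bead error of 0.070. Txndc12, or ERp18, had signals of 1087 and 1099 and a ratio of 0.02. Dnajc16, an ER J-domain protein, had signals of 319 and 335 and a ratio of 0.07. The ratios of Fkbp2, Txndc12 and Dnajc16 lay within the SD of 0.18 between probes of a gene.

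Other ER folding genes did not share the ratio of Hspa5. Of 35 listed lectin, degradation and unfolded protein response genes, 13 had a matched probe and 9 were detected. Their median was -0.31, and none was at least 1.5-fold apart in either direction. Over all detected genes, 4.34% were at least 1.5-fold higher and 5.58% lower. Below 0 were Erp29 and Calu (both -0.38), Edem2 (-0.37), Sel1l (-0.32), Xbp1 (-0.31) and Uggt1 (-0.25). Xbp1 codes for a transcription factor of the unfolded protein response, Sel1l and Edem2 serve the removal of misfolded proteins, and Uggt1 checks the folding of glycoproteins. Sec63 (0.33), a J-domain protein of the translocon, Derl2 (0.16) and Tmx1 (0.09) were above 0. Canx, Ero1a, Ero1b and Ern1 were not detected under their matched probes.

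Collagen folding genes were lower in all 4 detected cases, with a median of -0.47. Over all detected genes, 3988 of 8384 ratios lay below 0, and 5.58% were at least 1.5-fold lower (8.97% among the brighter genes). These 4 genes are too few to set against such shares. Serpinh1 codes for HSP47, the chaperone of procollagen, and had signals of 18431 and 11730 (1.57-fold lower). The prolyl hydroxylases P3h1 (-0.49), P4ha3 (-0.45) and P3h2 (-0.22) stayed within 1.5-fold. In the authors' deposited table the calls differed: P4ha3 was 2.19-fold, P3h1 1.68-fold and P3h2 1.56-fold lower, and Serpinh1 was 1.42-fold lower. With these values 11.3% of all detected genes were at least 1.5-fold lower. On the FGF2 array P4ha3 and P3h2 both had a normalized signal of 198, close to the lowest detected signal of 193, so their ratios are uncertain. Of the collagen genes among the fibroblast markers, Col1a1 stood at -1.76, Col1a2 at -1.30 and Col3a1 at -0.57 beside these genes. Whether the collagen level has a part in the folding genes' ratios was not tested.

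The promoter of Hspa5 is shown for its ER stress element, searched on both strands as CCAAT and CCACG with any 9 bases between them. The window is chr2:34771840-34772139 on the plus strand (GRCm38.p6), and capitals mark the match.

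Hspa5: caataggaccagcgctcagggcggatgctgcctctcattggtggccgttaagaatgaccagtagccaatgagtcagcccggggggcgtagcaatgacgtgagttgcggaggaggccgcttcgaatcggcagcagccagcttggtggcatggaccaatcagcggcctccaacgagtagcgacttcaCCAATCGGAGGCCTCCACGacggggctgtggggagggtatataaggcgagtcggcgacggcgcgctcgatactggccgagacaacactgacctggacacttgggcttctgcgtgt

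The match lay from 65 to 47 bases before the start. Only 39 of the 32851 windows in the table (0.12%) held such a match, and Hspa5 was the only 1 of the 24 members with a window that did. None of the ER members Fkbp14, Fkbp2, Txndc5, Txndc12 and Dnajc16 had either motif in its windows, which says only that these letters were not there.

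**Figure D3:**
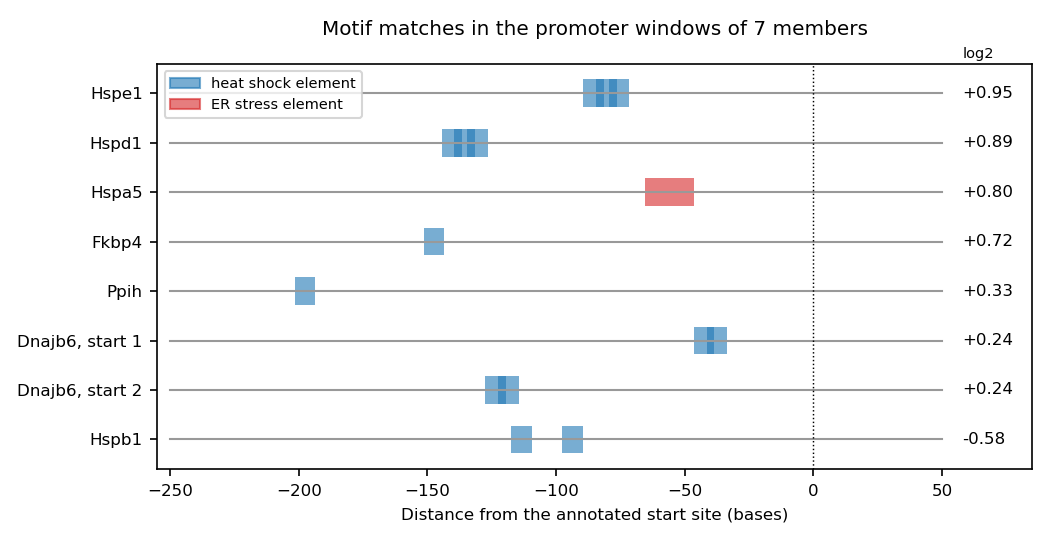
Position of heat shock element matches (blue) and ER stress element matches (red) in the windows of the 7 members that held any, against the distance in bases from the annotated start site (dotted line). Darker blue marks overlapping matches, the log2 ratio of each gene stands at the right, and Dnajb6 has 2 annotated starts. The second window of Hspd1, which had no match, is not drawn. Genes with a heat shock element match had ratios from -0.58 (Hspb1) to 0.95 (Hspe1).

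Across the 24 members with promoter windows, a heat shock element match was found in 7 of 32 windows (21.9%), from 6 genes. Over all 32851 windows the share was 15.1%. Beside the genes treated above, the matches were in Dnajb6 and Ppih. The windows of 5 starts (15.6%) held at least 2 matches, against 1.96% of all windows. Hspd1 and Hspe1 share theirs, however, and both Dnajb6 starts share theirs too. Members without an entry were not searched, among them Hsp90aa1, Hsp90ab1, Hspa8, Hspa9 and Ppid.

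Cytosol and ER were compared directly. The 17 cytosolic members had a median log2 ratio of 0.21 and a range from -0.58 to 0.89, and 14 of them were above 0. The 6 ER members had a median of -0.04 and a range from -0.79 to 0.80, and 3 of them were above 0. The ER median was therefore lower by 0.25 on the log2 scale, while the ranges overlapped over most of their length. At least 1.5-fold higher were 3 of 17 cytosolic and 1 of 6 ER members, and at least 1.5-fold lower were 0 and 1. Over all detected genes the shares were 4.34% higher and 5.58% lower, and among the brighter genes 7.18% and 8.97%. Groups this small are too few to set against these shares. The difference of medians lay between -0.37 and -0.24 over 9 other ways of processing. Requiring detection on both arrays could not change it, because all 34 members were detected on both, and probe averaging left it at -0.25. The difference could not be tested against the spread between cultures, and the ER median rests on the middle pair of its 6 genes, Fkbp2 and Txndc12.

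**Figure D4:**
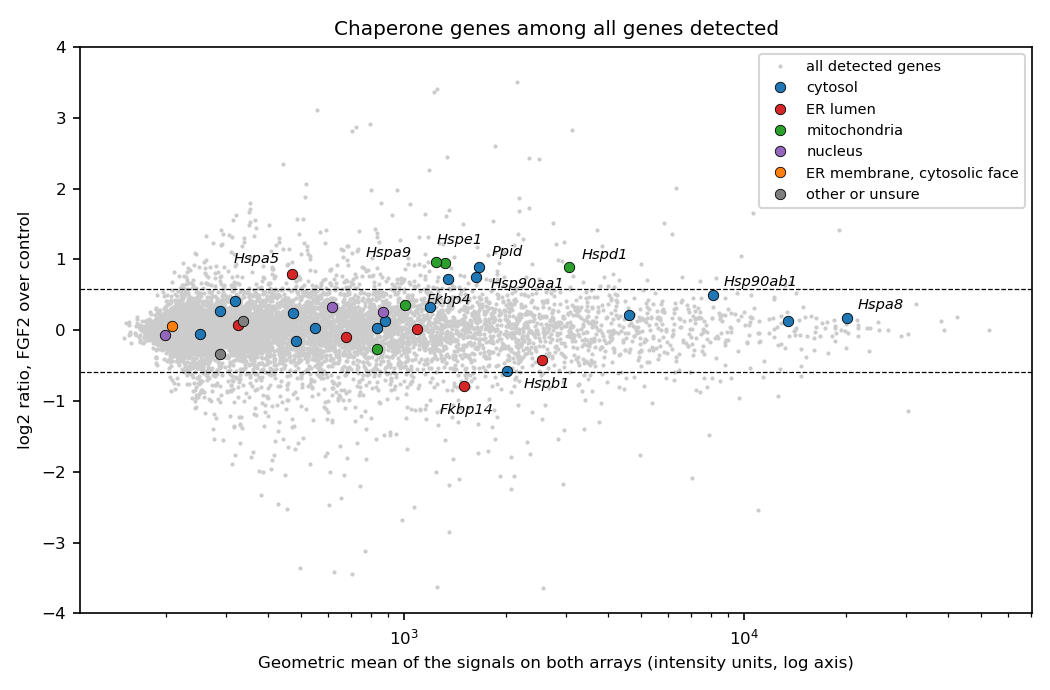
Log2 ratio of FGF2 over control against the geometric mean of the signals on both arrays (log axis) for all 8384 detected genes (grey) and the 34 members (coloured by compartment). Dashed lines mark 1.5-fold. The members lie well inside the largest ratios of the arrays, which reach -3.65 and 3.51.

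The remaining members were few. In the nucleus, Ppih, a cyclophilin of the spliceosome, had a ratio of 0.33, Dnajc8, also a splicing protein, 0.25, and Dnajc17 -0.07. Dnajb12, a J-domain protein of the ER membrane that faces the cytosol, stood at 0.06. Dnajc13, an endosomal protein, stood at 0.12 and Dnajc25, a membrane protein, at -0.34. All 6 were within 1.5-fold, but Dnajc25 reached -0.64 in the authors' deposited table and -0.59 with the median of undetected probes subtracted, past 1.5-fold lower in both.

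Members near the detection limit were followed too. Dnajc17 was just inside it, with scores of 0.996 and 0.992 and signals of 204 and 194, close to the lowest detected signals of 192 and 193. Just outside were Dnajb9, an ER partner of BiP, with scores of 0.972 and 0.942, and Dnaja1, a main cytosolic partner of HSP70, with 0.925 and 0.900. In all, 19 genes with 21 probes were below detection. These included Dnaja2, Dnajb4, Hspa4l and Hspa12a of the cytosol, Dnajc1, Dnajc10 and Hspa13 of the ER, and Dnajc11, Dnajc19 and Dnajc28 of mitochondria. The others were Dnajc6, Dnajc22, Dnajc27, Txndc15, Ppil6, Cct8l1 and the pseudogene Hspe1-ps2. A probe below detection sets no level for its gene.

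The calls at 1.5-fold were followed through the other ways of processing. Hspa9, Hspe1, Hspd1, Ppid, Hsp90aa1, Fkbp4 and Hspa5 stayed at least 1.5-fold higher, and Fkbp14 at least 1.5-fold lower, under all 9 alternatives. Some alternatives changed only the detection rule, averaged a gene's detected probes or kept the brighter genes, and could not move these ratios. Each of these genes had 1 detected probe, was detected on both arrays and was among the brighter genes. The check thus rests on the alternatives that changed scaling, background or floor. For Hspa5 the log2 ratio ran from 0.72 to 1.15, and for Hspa9 from 0.92 to 1.12. Hsp90ab1 passed 1.5-fold higher under 2 alternatives, median scaling and the authors' deposited table. Dnajc2 passed 1.5-fold higher, and Dnajc25 1.5-fold lower, in the authors' deposited table and with the median of undetected probes subtracted. Hspb1 passed 1.5-fold lower with that subtraction and with the signals as deposited.

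**Figure D5:**
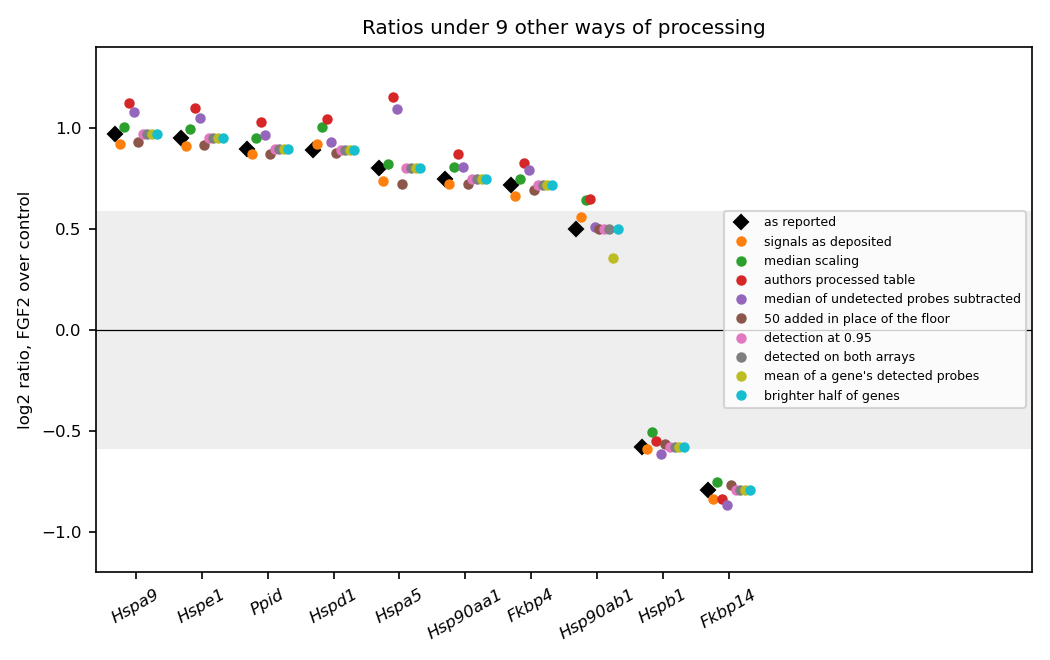
Log2 ratio of FGF2 over control for the 8 genes at least 1.5-fold apart and for Hsp90ab1 and Hspb1, as reported (black diamonds) and under 9 alternatives (coloured points). The grey band is within 1.5-fold. The 8 genes stay outside the band at every point, and Hsp90ab1 and Hspb1 have points on both sides of its edge. Alternatives that changed only the detection rule, probe averaging or the brightness of the genes kept could not move the 8 genes.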

How the data were processed

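Per the labels' protocols, 300 ng of total RNA per culture went into a linear amplification (6 h) with Cy3 as label. BeadStudio 1.0 was used, per the submitters' processing notes. The deposited array files list 24044 probes with the mean signal intensity over beads, the spread over beads and a detection score, per the file headers. The deposited intensities were neither background-subtracted nor scaled. The deposited detection score is a fraction from 0 to 1. The bead spread was taken as it stands, because the files used here hold no bead numbers. Whether this spread is an SD or a standard error is unclear. The authors' processed table holds linear intensities, with medians of 288 (control) and 293 (FGF2). Set against the array files it equals the signal minus 139 on the control array and the signal minus 132, multiplied by 1.05, on the FGF2 array. The origin of this factor is unknown.

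Numbers of at least 5 digits after 1 or 2 zeros in a probe ID were read as NCBI gene IDs. Of 9523 such probes, 8884 (93.3%) matched, against 48.6% of numbers that are 1 higher, so every gene name depends on an unstated correspondence. Signals were quantile normalized between the arrays, with a floor at the lowest signal detected on each array (192 and 193). Genes named in the text are the ER members, the HSP70, HSP90 and small heat shock protein members, every member at least 1.5-fold apart, and leading members of further classes. The members, compartments and lists were chosen with earlier results of these data known. Compartments were assigned from textbook knowledge. Promoters are from RefSeq (GRCm38.p6), where 24 of the 34 genes had an entry. Python 3.11.15, numpy 2.4.6 and pandas 2.3.3 were used, and the procedure was checked on simulated data.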

Additional observations from a re-analysis of the deposited data

How the results depend on the processing

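Under 9 alternatives, the difference of ER and cytosol medians kept its sign (-0.37 to -0.24) and 7 to 9 members were at least 1.5-fold higher. Requiring detection on both arrays could change neither result, because all members were detected on both. The number at least 1.5-fold lower was 1 as reported, 2 with the signals as deposited (Hspb1 added), 2 in the authors' deposited table (Dnajc25 added) and 3 with the median of undetected probes subtracted (both added). With the authors' values 11.2% of all detected genes were at least 1.5-fold higher and 11.3% lower, and with the undetected median subtracted 9.55% and 10.2%. Of 298 values of single members under the alternatives, 287 moved by less than 0.18, the SD between probes of a gene. The other 11 moved by more: 6 in the authors' table, 4 with the undetected median subtracted and 1 with median scaling. Changed detection rules and the brighter set repeat a member's reported value, and probe averaging can move only genes with several detected probes. The count of 287 includes these values, which say little about stability. The sign was kept throughout by 30 of 34 members; the exceptions, Bag4, Dnajb12, Dnajc5 and Txndc12, were close to 0. Median scaling raised the cytosol median to 0.31 and the authors' table to 0.35, against a median of 0.03 and 0.04 over all genes. Background in the signal limits the ratios of dim members. No paired analysis was possible because each group has 1 array.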
